A study of Mus musculus with 162 samples.

Results

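The cytosolic ribosomal protein genes were followed through short-term fasting (STF) in 9 organs of the mouse. Members were the rows of the deposited count table whose symbol is Rpl or Rps followed by a number and an optional a, x or l, together with Rplp0, Rplp1, Rplp2 and Rpsa, a rule that reads symbols alone. The rule found 83 of the 53686 rows, of which 51 belong to the large and 32 to the small ribosomal subunit. In the Gencode annotation used here 80 of them are protein coding, whereas Rpl32l and Rpl6l are processed pseudogenes and Rps4l is a transcribed processed pseudogene, so that the name of the set does not hold for those 3. Each of 18 male C57Bl/6J mice, aged 8 to 9 weeks, gave all 9 organs. From the brain came OB (the olfactory bulb), BRN (telencephalon with diencephalon), CBL (the cerebellum) and BST (the brainstem), and from the trunk LIV (liver), STM (stomach) and 3 fat depots, which were iBAT (brown, between the shoulder blades), pgWAT (white, around the gonads) and psWAT (white, posterior and under the skin). Different mice, 3 per time point, were fasted for 0, 2, 8, 12, 18 or 22 h, and no genotype or agent differed between the groups. All mice were killed at the same hour early in the dark phase, so that the length of the fast and the hour at which food was removed cannot be told apart. Comparisons used all libraries but 5, which the study left out for totals low for their organ, and contrasted late libraries (18 and 22 h) or mid libraries (8 and 12 h) with early ones (0 and 2 h).

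Each ribosomal protein is needed in a single copy per ribosome, apart from the acidic stalk proteins Rplp1 and Rplp2, which sit in pairs on Rplp0 and recruit the elongation factors. Ribosomal protein mRNAs are short and abundant, and they carry a 5' terminal oligopyrimidine (5'TOP) tract, a cytosine at the cap followed by a run of pyrimidines. When nutrients and insulin fall and the kinase mTORC1 is less active, the protein LARP1 binds the cap of these mRNAs, holds back their translation and protects them from decay, so that the mRNA level and the rate of protein synthesis need not move together. The same mRNAs have been copied back into the genome many times, and those intronless copies are close to identical to the spliced mRNA.

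The start sites of the members are shown for the 5'TOP tract. RefSeq promoters of GRCm38.p6 were matched by symbol for 61 of the 83 members, in 73 promoter windows. A cytosine followed by at least 4 pyrimidines, read on the strand of the gene and at the annotated start, was found in 14 of the 73 windows (19.2%), against 2.51% of the 32851 promoters of the table. Such a tract within 10 bases of the start was found in 56.2% of the member windows, against 30.7% of all promoters. Below, 6 of those with the tract at the start are written as 15 bases before the start and 15 from it, with the tract in capitals.
Rpl14, chr9:120571502-120571531, plus strand: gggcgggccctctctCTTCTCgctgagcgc
Rpl28, chr7:4792950-4792979, plus strand: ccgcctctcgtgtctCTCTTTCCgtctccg
Rpl38, chr11:114668565-114668594, plus strand: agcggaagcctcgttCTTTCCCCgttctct
Rplp2, chr7:141447636-141447665, plus strand: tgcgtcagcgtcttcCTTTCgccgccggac
Rps6, chr4:86857353-86857382, minus strand: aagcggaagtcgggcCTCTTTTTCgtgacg
Rps18, chr17:33955651-33955680, minus strand: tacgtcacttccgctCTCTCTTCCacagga
The tract was sought by its letters alone in annotated starts, which were not measured in these organs.

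The copies bear on the counts of the members that have them, because only reads aligned to a single place were counted. A copy was defined as another gene whose transcript matches at least one 150-base window of the member with up to 2 mismatches. Such copies were counted for 72 members, 488 genes in all, and in the median member 52.9% of the windows matched a copy. The copies held more counts than the member itself for 63 members. Rps29, of the small subunit, had 2333 counts over all libraries, and Gm14303, identical to it over the whole aligned stretch, had 576652. Rpl24, of the large subunit, had 808 counts against 265195 for the processed pseudogene Gm9385. The 2 pairs below, the 30 aligned bases with the most differences in each, show members that few bases set apart from their most counted copy (differing bases in capitals).
Rpl24, gene at chr16:55966275-55971435, plus strand: gttaggaaagcccagCgagagcaggctatc
Gm9385, chr9:116040593-116041064, minus strand: gttaggaaagcccagTgagagcaggctatc
Rpl36, gene at chr17:56613416-56614243, plus strand: aaaacgtcagTAagccgagacacagccggC
Gm13611, chr2:32271845-32272162, plus strand: aaaacgtcagCGagccgagacacagccggA
Over the aligned stretch Rpl24 and Gm9385 were identical at 471 of 472 bases and Rpl36 and Gm13611 at 313 of 318. Of 72 most counted copies, 16 did not differ from the member at all. Others were less alike when aligned without gaps, such as Gm11478 and Rpl13a at 75.3% of bases. A member's row therefore holds only the reads that were placed on it. Identical copies were not empty: Rps16-ps2, identical to Rps16 at all 441 aligned bases, had 394522 counts against 6031. Which gene the reads on a copy came from was not tested. No window matched a copy in 11 members, Rpl8, Rpl32, Rpl3l, Rps3 and Rps27l among them, and their counts do not depend on such copies. The main comparisons below are given for the members' own rows and, where the calls or medians change, also with the counts of each member and its copies summed, an alternative chosen after the data had been seen.

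Retained libraries held 3045845 to 27801717 counts (median 8735554), and a level is given as CPM with the total scaled by the TMM factor (normalized CPM). Depth was uneven in CBL, with 20396385 to 22071004 counts per library at 0 h against 6487419 to 9487976 later. After the filter on low counts 77 members were tested in all 9 organs, 5 in some of them (Rpl24, Rpl35, Rpl39l, Rpl3l and Rps29) and Rpl10l, a relative of Rpl10 used in male germ cells, in none. Defining markers fitted the labelled organs, with hepatocyte genes at 75440 to 97340 normalized CPM in LIV, gastric genes at 85060 to 289700 in STM, cerebellar genes at 8687 to 10590 in CBL and brown adipocyte genes at 3992 to 10700 in iBAT, whereas white adipocyte genes ranged widely in psWAT, from 64.41 to 7397. Some libraries stood apart by markers of other tissues. In pgWAT, epididymis or testis markers summed to 17980 normalized CPM at 18 h replicate 3 and to 20090 at 22 h replicate 2, against at most 2628 in the other pgWAT libraries. Lymphocyte markers summed to 326.5 to 4569 in psWAT and to at most 31.57 in every other organ. Skeletal muscle markers ranged from 23.44 to 38210 in psWAT and from 41.63 to 12380 in iBAT, and in STM from 346.3 to 2066 in early and from 2494 to 4610 in late libraries. By its whole profile psWAT 12 h replicate 3 lay nearest to CBL and psWAT 8 h replicate 1 nearest to pgWAT. In bulk samples, fewer cells of a type and less RNA per cell cannot be told apart.

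Together the members held 0.169 to 2.72% of the counts of a library (median 0.426%). Members and copies summed to 0.631 to 10.9% (median 1.54%). The share was highest in psWAT, from 0.856 to 2.72%, and its lowest and highest libraries, 8 h replicate 1 and 22 h replicate 1, were also those with the lowest (326.5) and highest (4569) lymphocyte marker sums, whose part in the share was not tested. In BST it stayed between 0.312 and 0.387%, in CBL between 0.267 and 0.422% and in LIV between 0.322 and 0.525%. In BRN the 3 libraries at 0 h held 0.349, 0.407 and 0.368%, and all the later ones 0.422 to 1.15%. In iBAT the 2 retained libraries at 22 h held 1.10 and 0.639%, the 3 at 18 h 0.250, 0.283 and 0.296%, and those of 0 to 12 h 0.169 to 0.437%. Thus the 22 h libraries of iBAT lay above all other iBAT libraries, and the 0 h libraries of BRN below all other BRN libraries.

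**Figure D1:**
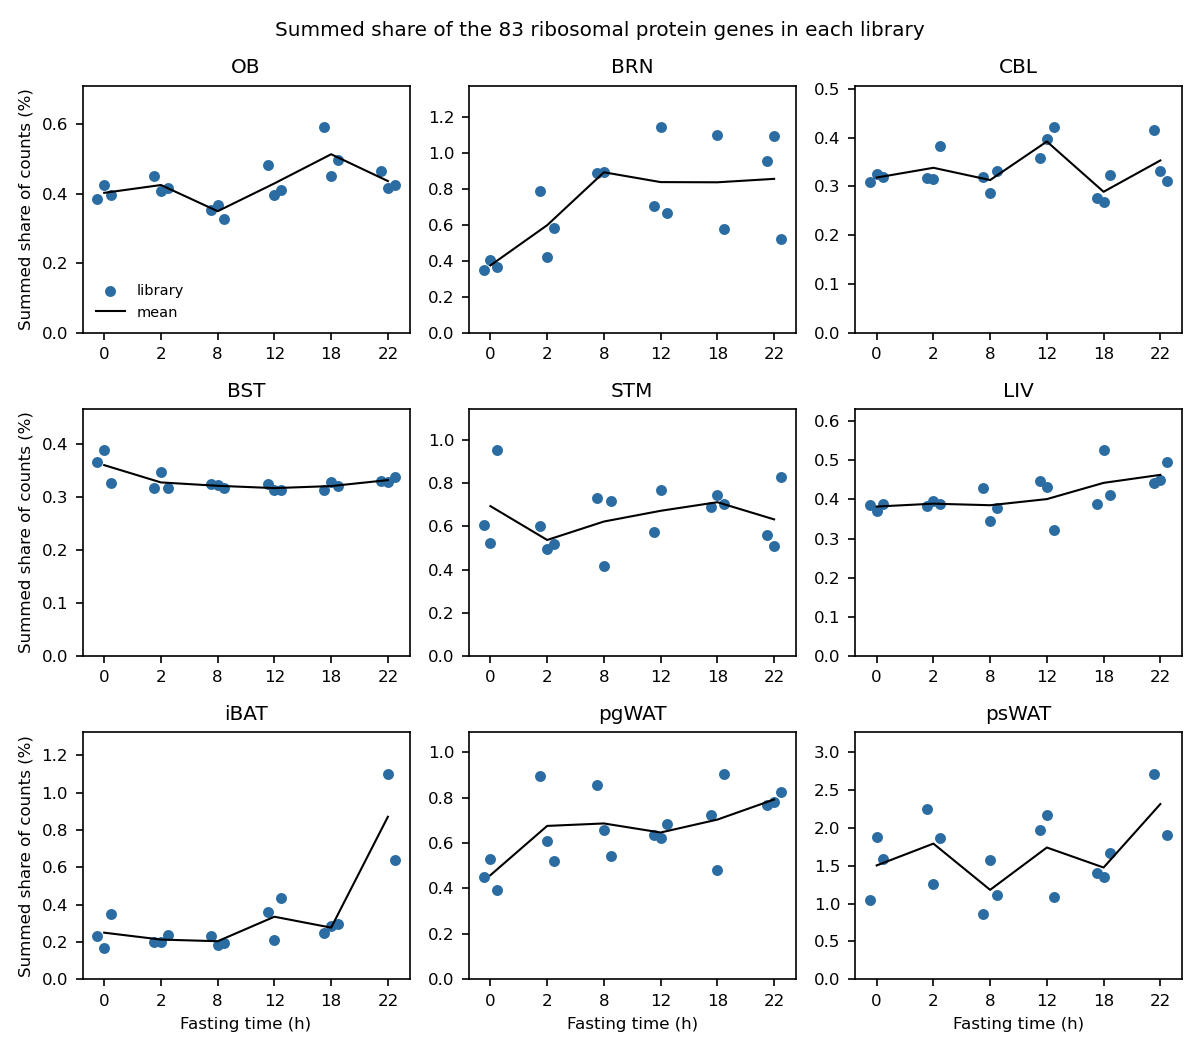
Percent of all counts held by the 83 members in each retained library (points) against hours of fasting in the 9 organs, with a scale of its own in each panel. BRN lay lowest at 0 h (0.349 to 0.407%), iBAT highest at 22 h (0.639 and 1.10%), and BST ranged only from 0.312 to 0.387%.

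Both shifts ran along annotated exon length. The members' annotated exons spanned a median of 1734 bases, against 3499 for all genes tested, and their mRNAs a median of 751 bases. A slope of log2 level on log2 exon length was taken in each library over all genes tested, relative to the mean of the organ, and a negative slope means that short transcripts were high there. In iBAT it was -0.47 and -0.32 in the 22 h libraries and 0.03, -0.02 and 0.01 in those at 18 h. In BRN it was 0.15 to 0.20 at 0 h and -0.18 to 0.11 in the retained libraries of other times. Genes outside the member list followed the same order: in iBAT their median log2FC, late over early, was 0.77 for exons up to 500 bases, 0.42 between 1000 and 2000, -0.27 between 4000 and 8000 and -0.64 above 8000, and in BRN it was 0.59, 0.26, -0.15 and -0.37. In STM and LIV those medians stayed between -0.12 and 0.09 in all length classes. In each length class that held members, in iBAT and in BRN, the members' median lay above that of the other genes: between 1000 and 2000 bases it was 0.68 against 0.42 in iBAT and 0.74 against 0.26 in BRN, and between 4000 and 8000 bases, with 6 members, 0.96 against -0.27 and 0.87 against -0.15. Exon length here counts all annotated exons of a gene. The mRNAs of those 6 members had 640 to 3706 bases, so members and other genes of a class need not match in mRNA length. With the length trend of each library, on the same exon length, removed by offsets, the members' median log2FC went from 0.80 to 0.45 in iBAT and from 0.81 to 0.70 in BRN. What produced the length trend was not tested.

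In iBAT, the heat-producing fat depot, 43 of 79 members tested were higher in late than in early libraries and none lower, against 16.6% of all genes tested called higher and 19.4% lower (edgeR quasi-likelihood test, adjusted p below 0.05, 6 early and 5 late libraries). The called members came from both subunits, 25 of 48 large and 18 of 31 small, and the median log2FC was 0.80. By exon length, 12 of 31 members between 1000 and 2000 bases were called higher, against 35.7% of the other genes of that length, and 16 of 29 between 2000 and 4000 bases, against 19.3%. Removing the length trend left 31 members called higher, against 13.6% of all genes. With 0 h alone as the reference 25 were called (median 0.61), in a fit whose share of all genes is not given here. All 3 stalk members were called, Rplp0 with a log2FC of 1.09, Rplp1 of 0.94 and Rplp2 of 1.23, and so was the small-subunit protein Rpsa, also known as the laminin receptor, with 1.07.

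Rpl8, a large-subunit protein at the peptidyl transferase centre with no matching copy, was measured in iBAT at 225, 167.2 and 230.6 normalized CPM at 0 h and at 165.96 to 179 at 2 h. At 18 h it was 210, 221 and 238, and at 22 h 965 and 563. The 22 h libraries were far above the rest, the 18 h libraries overlapped the early ones, and the log2FC was 1.12 ± 0.184 (SE, edgeR adjusted p 0.00108). Rps15, a small-subunit protein near the decoding site, followed the same course in iBAT, with 63.3 to 147.9 in early libraries, 98.3 to 109.3 at 18 h and 645 and 327 at 22 h (log2FC 1.40 ± 0.242, edgeR adjusted p 0.00123). Rpl32, of the large subunit and also without a copy, was 13.6 to 34.8 early, 24.6, 32.98 and 34.8 at 18 h and 137.3 and 79.2 at 22 h (log2FC 1.41 ± 0.241, edgeR adjusted p 0.00118). Rps6, the small-subunit protein phosphorylated downstream of mTORC1, was 23.3 and 14.9 at 22 h against 4.95 to 9.29 in all other iBAT libraries.

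The iBAT change thus lay in 22 h. With 18 h alone as the late group none of 79 members and no gene of the whole table was called, and the median log2FC was 0.08. With 22 h alone it was 1.52, from 2 libraries, of which replicate 2 was the only retained iBAT library of its library number series. With that series as a covariate 34 members were called higher and 1 lower and the median was 0.59, in a fit whose share of all genes called is not given here. Both 22 h libraries ran on lanes that no other retained iBAT library used, so that lane and 22 h cannot be told apart in iBAT. White adipocyte markers summed to 3374 and 3031 in those 2 libraries against 1777 to 2548 in the others, with 2 of 4 genes called higher in late libraries. Erythroid markers stood at 514.2 and 651.1, but also at 503.3 in 18 h replicate 2, whose member share was 0.283%. The part of either list was not tested. With copies summed 79 of 82 members were called higher in iBAT (16.8% of all genes), and 72 with the length trend removed as well (14%). The log2FC was above 0 for 71 of the 79 members. Among the others, none called, were Rps28 (-1.02) and Rps27a, a fusion with ubiquitin (-0.56, but 0.98 with copies summed).

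**Figure D2:**
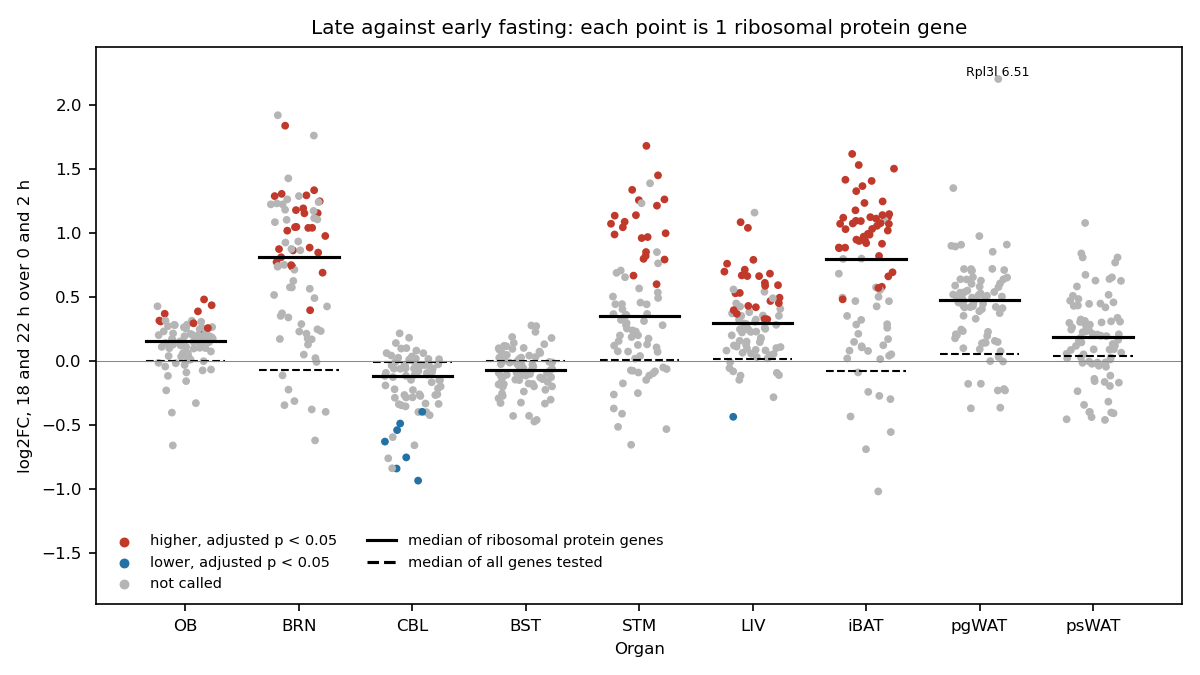
Fitted log2FC, late over early, of each member tested (points) in each organ, with calls at an adjusted p below 0.05 marked and the median drawn. Rpl3l in pgWAT, at 6.51, lies outside the axis and is labelled; calls were most frequent in iBAT (43 of 79), BRN (26 of 79), LIV (25 of 81) and STM (21 of 80).

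In BRN 26 of 79 members were higher late than early and none lower, against 5.19% of all genes called higher and 2.24% lower, with a median of 0.81. In the mid libraries 21 members were higher and none lower, against 2.23% and 0.71% of all genes. None of these was called with the length trend removed (median 0.53 against 0.77), with lane (0.73) or library number series (0.62) as a covariate, with the 5 left-out libraries put back (0.76), or without any one of 6 single libraries. In the first 4 of these fits at most 1 gene of the whole table was called. Relative to 0 h, the median over members was 0.50 at 2 h, 0.99 at 8 h, 1.05 at 12 h, 1.04 at 18 h and 1.06 at 22 h, so that most of the distance had been covered by 8 h. Rpl7, of the large subunit, was 22.1, 23.4 and 24.7 normalized CPM at 0 h and 35.95, 26.1 and 35.7 at 2 h in BRN. It was 79.5 and 53.95 at 18 h and 49.04, 60.7 and 36.9 at 22 h. Each late library lay above each early one, and the log2FC was 1.05 ± 0.177 (edgeR adjusted p 0.0141). Rpl36, also of the large subunit, was 6.16 to 7.55 at 0 h, 10.1 to 12.0 at 2 h, 26.1 and 15.6 at 18 h and 23.4, 31.6 and 12.1 at 22 h (log2FC 1.30 ± 0.267, edgeR adjusted p 0.0146), again with no overlap between early and late. Rpl14 gave a log2FC of 1.15 ± 0.225 and the stalk protein Rplp1 one of 1.18 ± 0.22, both with an edgeR adjusted p of 0.0146. Libraries did not overlap for 8 members in BRN, against 1.79% of all genes, and those outside the rule for named genes (Rpl13, Rpl23, Rpl38, Rps2 and Rps26) were picked after their values had been seen.

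Rpl41, the shortest ribosomal protein, had the largest log2FC in BRN, 1.92 ± 0.592, without passing the test (edgeR adjusted p 0.0693). At 0 h it was 256, 202 and 207, and at 2 h 1045, 263 and 611, and the 2 h libraries overlapped the late ones (417 to 2631). Skeletal muscle marker sums in BRN, like the member shares, were lowest at 0 h, at 71.82 to 91.03, against 98.64 to 283.4 in all later libraries. Erythroid markers had a median of 102.6 early and 228.9 late, and pancreas acinar markers one of 11.47 and 29.44. Neuron markers had one of 4027 early and 3494 late, down to 2394 in 18 h replicate 2, whose member share was 1.099%, with 0 of 5 genes called. The part of these lists was not tested. The BRN calls rested on single libraries. No member was called when 0 h replicate 1, 2 h replicate 2, 18 h replicate 2 or 22 h replicate 2 was left out, and 50 were when 18 h replicate 3 was. How many of all genes were called in these fits is not given here. None was called with the 5 left-out libraries put back, with lane as a covariate or with library number series as a covariate, settings under which no gene of the whole table was called either in the late comparison. The median over members kept its sign, at 0.78, 0.66 and 0.63. The 5 late libraries all belonged to 1 library number series, and 4 of the 6 early ones did not. With the length trend removed 16 members were called higher in late BRN (4.51% of all genes), and with 18 h alone as the late group 1 (0.412%). With copies summed 50 members were called higher in BRN (4.98%), with Rpl7 at 0.78, Rpl14 at 0.91 and Rpl36 at 1.74.

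In LIV 24 of 81 members were higher and 1 lower, against 7.76% and 7.2% of all genes, with a median log2FC of 0.29. Those higher were 12 of 49 large-subunit and 12 of 32 small-subunit members. With lane as a covariate no member was called in LIV, where 8 genes of the whole table were, and the median was 0.46. With 22 h alone as the late group 10 members were called, all higher, against 2.55% of all genes. In the mid libraries 11 were higher and 2 lower, against 9.04% and 8.94% of all genes, with a median of 0.16. With copies summed 9 of 81 were higher and 8 lower in mid LIV, and the median turned to -0.078. The share of all genes in that fit is not given here, and in the main fit it was 9.04% and 8.94%. Rpl36 was 5.50 to 9.12 normalized CPM at 0 h, 8.67 to 13.9 at 2 h, 15.2, 20.7 and 18.2 at 18 h and 20.1, 18.4 and 21.4 at 22 h in LIV. All late libraries lay above all early ones (log2FC 1.04 ± 0.145, edgeR adjusted p 0.00021). Rpl34, of the large subunit, was 11.3 to 17.5 early and 19.1 to 26.6 late, again without overlap (log2FC 0.76 ± 0.124, edgeR adjusted p 0.000556). Rpl14 rose by 0.53 ± 0.0954 (edgeR adjusted p 0.00117). With copies summed Rpl36 stood at 0.63 and was still called, whereas Rpl34 (0.11) and Rpl14 (0.20) were not. The libraries of 6 members in LIV did not overlap, against 2.47% of all genes, and of these Rpl18, Rpl36a and Rps23 were picked after their values had been seen. Rpl4, a large-subunit protein lining the exit tunnel, moved the other way: it was 319, 319 and 279 at 0 h, 214, 312 and 271 at 2 h, 163, 150 and 172 at 12 h and 215 to 229 in 5 of the 6 late libraries, with 140.9 in 18 h replicate 1 (log2FC -0.44 ± 0.124, edgeR adjusted p 0.0224). Rplp0, a common reference gene, was 60.5 to 93.8 early and 54.4 to 102.9 late in LIV (log2FC -0.01), with overlap.

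In STM 21 of 80 members were higher and none lower, against 10.7% and 12% of all genes, with a median of 0.35. Of them 15 were of the large and 6 of the small subunit. With 22 h alone as the late group 1 member was called (median 0.30), with lane as a covariate none (median 0.11), and with 0 h alone as the reference 6 were higher and 4 lower (median 0.21). In the lane fit no gene of the whole table was called either. The shares of all genes in the 22 h and 0 h fits are not given here. Rpl13 was 16.99 to 28.03 normalized CPM in early STM libraries, 47.4, 50.3 and 42.2 at 18 h and 36.2, 23.5 and 37.3 at 22 h, with only 22 h replicate 2 inside the early range (log2FC 0.97 ± 0.167, edgeR adjusted p 0.00138). Rpl36 was 2.52 to 7.67 early, 19.2, 19.1 and 17.4 at 18 h and 28.1, 7.75 and 8.95 at 22 h, without overlap (log2FC 1.68 ± 0.316, edgeR adjusted p 0.0022). Rps26, at the mRNA exit channel of the small subunit, went up by 1.00 ± 0.195 (edgeR adjusted p 0.0027). With copies summed none of the 3 was called, and their values were 0.26 for Rpl13, 0.58 for Rpl36 and 0.09 for Rps26. Markers of several cell types moved with these values in STM. Skeletal muscle sums were all higher in late than in early libraries, with 1 of 10 genes called, and so were neuron sums, 20.63 to 44.97 early and 53.6 to 84.08 late, with 4 of 4 tested genes called. Pancreas acinar sums were 106.1 to 525.4 early and 23.83 to 64.88 late, 4 of 4 white adipocyte genes and 3 of 6 gastric epithelium genes were called lower, and the part of these lists was not tested. Rps3, a small-subunit protein at the mRNA entry and without a copy, picked after its values had been seen, was 417 to 1270 early, the highest in 0 h replicate 3, and 347 to 570 late (log2FC -0.53, edgeR adjusted p 0.109). Early and late libraries did not overlap for 4 members, against 3.27% of all genes: Rpl36, Rpl3l, Rpl17 and Rpl37a, the last 2 picked after their values had been seen.

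The calls of STM and LIV fell among members with copies. Of the 10 members tested in STM that share no window with a copy, none was called (median log2FC -0.24). Of those sharing up to 50% of their windows 9 of 29 were (0.29), and of those sharing more 12 of 41 (0.49). In LIV it was none of 10 (0.07), 9 higher and 1 lower of 29 (0.32) and 15 of 42 (0.32). In iBAT it was 8 of 11 (1.11), 16 of 27 (0.88) and 19 of 41 (0.66), and in BRN 4 of 10 (1.06), 12 of 28 (0.84) and 10 of 41 (0.73). The median thus went down with the share of matching windows in iBAT and BRN, whereas the share of members called was about the same in the first 2 classes of BRN. Differences between the classes were not tested. With copies summed, 2 members were called in STM (median -0.05) and 13 higher and 1 lower in LIV (median 0.11). For those fits the share of all genes called is not given here. The share of the summed counts that stood on the members' own rows was 20.4 ± 0.939% in early and 22.3 ± 0.837% in late STM libraries (mean ± SD, n = 6 each), ranging from 18.7 to 21.2% and from 21.3 to 23.1%. In LIV it was 18.3 ± 0.333% and 19.2 ± 0.819%, with overlap. In STM, LIV and OB the early libraries ran on 1 sequencing lane and the late ones on another, so that lane and fasting could be separated there only through the 8 h libraries, which ran on both.

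**Figure D3:**
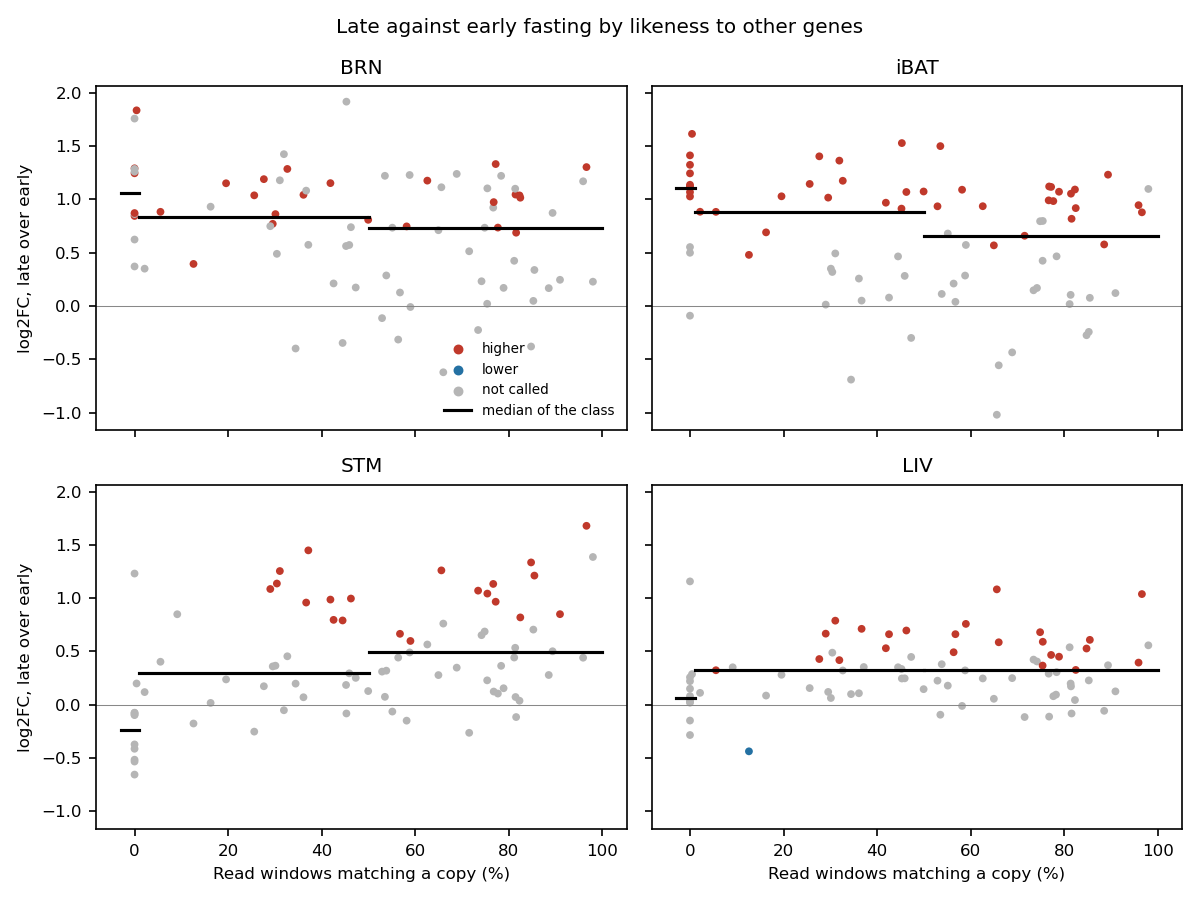
Fitted log2FC, late over early, of each member against the percent of its 150-base windows that match a copy, in BRN, iBAT, STM and LIV. In STM the 10 members without a matching window have a median of -0.24 and those over 50% one of 0.49, whereas in iBAT the medians are 1.11 and 0.66.

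In OB the changes were small. There 9 of 78 members were higher and none lower, against 2.32% and 2.54% of all genes, with a median log2FC of 0.16 and no log2FC over 0.48. Rpl32 was 32.3 to 41.7 normalized CPM in early OB libraries and 39.5 to 68.7 in late ones (log2FC 0.43 ± 0.0997, edgeR adjusted p 0.0227), and the groups overlapped. Rpl7 rose by 0.29 ± 0.074 (edgeR adjusted p 0.031), Rplp0 by 0.23 ± 0.0651 (edgeR adjusted p 0.0438) and the pseudogene Rpl6l by 0.31 ± 0.0694 (edgeR adjusted p 0.0198). With copies summed 20 members were called higher in OB (2.3% of all genes). With the length trend removed 2 were higher and 1 lower (median 0.07), and with lane or hours as a linear term none was called. The median with lane was 0.27, and no gene of the whole table was called in that fit. Erythroid markers summed to 115.6 to 246.9 in OB at 18 h and to 52.59 to 65.96 at 22 h, and their part was not tested. With 18 h alone as the late group 26 members were called in OB (25 higher, against 7.81% of all genes called in each direction) and with 22 h alone none (0.0478% higher and 0.113% lower), and none was called without 0 h replicate 1, 2 h replicate 2, 2 h replicate 3 or 22 h replicate 3.

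CBL went the other way, with no member higher and 7 of 77 lower, against 0.77% and 1.71% of all genes (median -0.12). Rps13, of the small subunit, was 3.77 to 4.77 normalized CPM in early CBL libraries, 2.58, 3.29 and 2.12 at 18 h and 2.09, 1.30 and 2.02 at 22 h. All late libraries lay below all early ones (log2FC -0.94 ± 0.163, edgeR adjusted p 0.00682). Rpl9, of the large subunit, was 6.86 to 9.07 early and 2.76 to 6.91 late (log2FC -0.84 ± 0.162, edgeR adjusted p 0.0106). Rps24 fell by 0.40 ± 0.084 on the log2 scale (edgeR adjusted p 0.0186). Rpl10 was also lower (log2FC -0.75), and the others were Rpl10a, Rpl30 and Rpl35a, picked after their values had been seen. All 7 share windows with copies, and with copies summed 1 member was called lower, with Rps24 at -0.29, Rps13 at -0.08 and Rpl9 at -0.06. Leaving out CBL 22 h replicate 3 left 2 calls, and CBL 2 h replicate 2 left 3. With 18 h alone as the late group no member was called (median -0.20), and with 0 h alone as the reference 2 were (-0.10). The shares of all genes called in these alternative fits are not given here.

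In BST, pgWAT and psWAT no member was called by edgeR, against 0.0119%, 0% and 0% of all genes called higher and 0.0655%, 0.00609% and 0% lower. At an unadjusted p below 0.05 there were 12, 35 and 8 members, and DESeq2 called 0, 2 and 0. Neither set of counts stands beside a share of all genes, so neither can be set against a background. The members of BST were the steadiest: Rplp0 was 50.4 to 59.4 normalized CPM early and 52.5 to 60.1 late, and the median log2FC was -0.07. In pgWAT the median was 0.47, with 71 of 80 members above 0. Other genes also ran along exon length there, from 0.39 up to 500 bases to -0.12 above 8000. With the length trend removed the members' median in pgWAT was 0.36. Rplp0 there was 151.4 to 293 early and 160.03 to 299 late. Without pgWAT 2 h replicate 1, whose member share was the highest of the early libraries (0.895%), 27 members were called higher, against 3.73% of all genes. In psWAT the median was 0.19, but -0.22 with 18 h alone as the late group and 0.59 with 22 h alone, and Rplp0 was 333 to 656 early and 435 to 713 late.

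In the mid libraries of OB, CBL, BST, STM, iBAT, pgWAT and psWAT no member was called by edgeR or DESeq2, with 7, 9, 16, 5, 2, 8 and 1 members at an unadjusted p below 0.05. Of all genes edgeR called 0.185% in OB, 0.0238% in BST, 0.0619% in iBAT and 0% in CBL, STM, pgWAT and psWAT. The share of all genes at that unadjusted p was not taken.

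Whether the late difference of a member varied between organs was tested directly. The interaction of organ and fasting passed for 61 of 82 members (74.4%), against 32.2% of all genes tested (edgeR F test over 8 contrasts, adjusted p below 0.05), and for 26 without the mice of replicate 2. The 32.2% belongs to the full fit, and the share without those mice is not given here. Rpl8 was among the 61 members (edgeR adjusted p 1.46e-05), being 1.12 in iBAT, 0.84 in BRN and -0.09 in STM.

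Close relatives of single members had levels of their own. Levels here are on the scale of the fit over all organs, with TMM factors over all libraries. Rps27l, a p53-responsive relative of Rps27, averaged 391.97 ± 31.9 normalized CPM in LIV (SD, n = 18), 170 ± 110 in iBAT (n = 17), 108.8 ± 33.5 in pgWAT (n = 18) and 12.6 to 26.4 in OB, CBL, BST and BRN. It was higher in LIV than in the mean of the other organs by a log2FC of 3.31 and lower in OB by one of -2.25. The LIV and iBAT libraries overlapped, since iBAT reached 485 at 22 h. Rpl39l, a relative of Rpl39 known from the testis, averaged 3.09 ± 1.74 in iBAT and 2.03 ± 1.93 in psWAT and 0.00492 to 0.163 elsewhere (log2FC 4.81 and 3.99 against the other organs). Its total was 761 counts over all libraries.

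Rpl3l, the striated-muscle relative of Rpl3, averaged 18.99 ± 25.2 in iBAT, 18.6 ± 31.1 in psWAT and 9.12 ± 5.77 in STM, and libraries of the same organ differed widely, from 0.378 to 102.8 in iBAT. Skeletal muscle markers reached 12380 in iBAT, 38210 in psWAT and 4610 in STM, against at most 1085 in the other 6 organs, and their part was not tested. On the scale within pgWAT Rpl3l was at most 1.56 there except for 140 in 18 h replicate 3 and 22.7 in 22 h replicate 2, the libraries with the high epididymis or testis markers. Skeletal muscle markers stood at 27.5 and 494.8 in those 2. The late over early log2FC of 6.51 in pgWAT (edgeR adjusted p 0.11) rests on them.

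Between organs, calls needed an absolute log2FC above 1 as well as an adjusted p below 0.05, with the mouse as a block, and levels in these comparisons were scaled by TMM factors taken over the libraries of all organs, so that they differ from the levels within an organ given above. In psWAT 68 of 82 members were higher than in the mean of the other organs and none lower, against 24.2% and 14.9% of all genes, with a median of 1.59. In LIV 41 were higher and 1 lower (21.5% and 30.3% of all genes, median 1.01), and in STM 15 and 2 (20.5% and 15.3%, median 0.56). In CBL 1 was higher and 47 lower (21% and 19.5%, median -1.06), and in BST also 1 and 47 (24.9% and 17.2%, median -1.09). OB had 1 higher and 16 lower (22.6% and 17%, median -0.72). BRN had 4 and 5 (23% and 18.1%), iBAT 4 and 6 (18.8% and 20.9%), and pgWAT 1 and 1 (22.2% and 13.5%), with medians of -0.04, -0.42 and 0.09. These counts depend on the scaling: with library totals in place of TMM there were 3 higher and 35 lower in iBAT, 14 and 4 in LIV, 1 and 22 in CBL, 6 and 2 in STM, and 2 and 3 in OB. The calls of psWAT (76 higher) and BST (1 higher, 39 lower) moved less. Shares of all genes under library totals are not given here, so these counts cannot be set against them. On that scale Rplp0 ran from 49.9 ± 2.61 in BST and 50.9 ± 8.32 in CBL, which do not differ beyond their spread, through 113.9 ± 21.97 in LIV to 265 ± 66.9 in STM and 369 ± 102.9 in psWAT. Lymphocyte marker sums, given above, also set psWAT apart from every other organ, and their part was not tested. White fat RNA was extracted with a kit of its own, and extraction and organ cannot be told apart for psWAT and pgWAT.

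**Figure D4:**
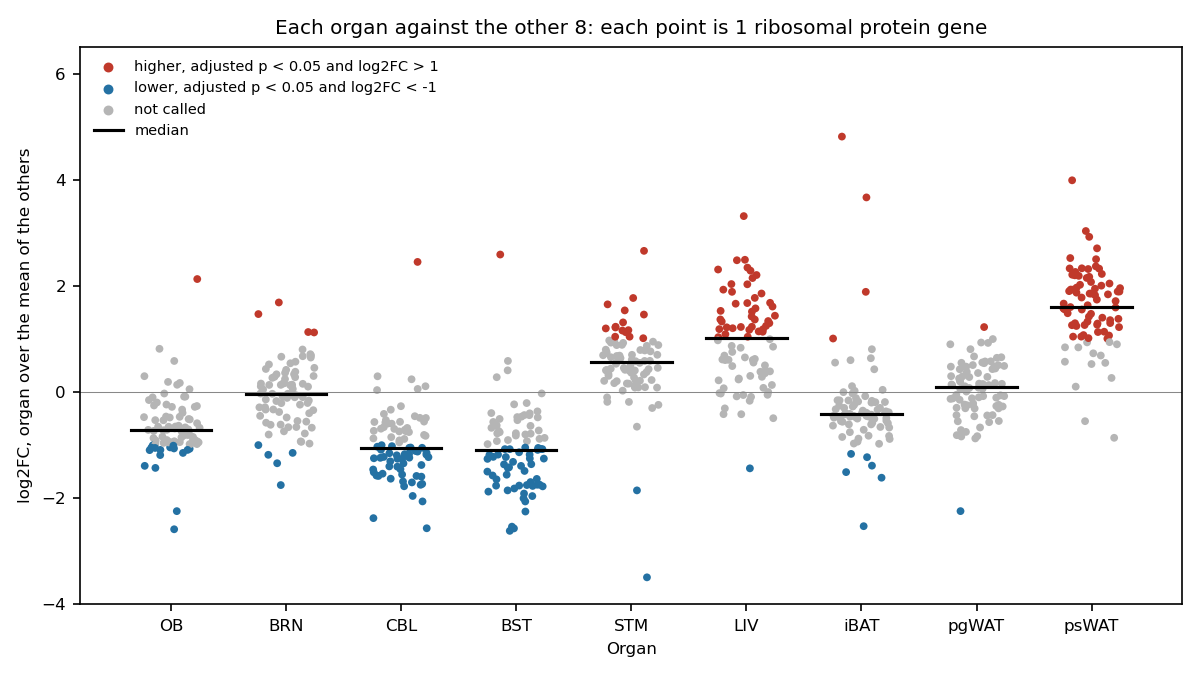
Fitted log2FC of each of the 82 members tested in each organ against the mean of the other 8 organs, with calls marked and the median drawn. Medians run from -1.09 in BST and -1.06 in CBL to 1.01 in LIV and 1.59 in psWAT.

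Single members departed from the level of their organ. Rpl41 was highest in BRN, 872 ± 667 normalized CPM. Rpl10, of the large subunit, averaged 40.02 ± 6.22 in LIV and 1.76 ± 0.452 in BST. Rpl39, at the exit tunnel, averaged 134.9 ± 86.8 in psWAT and 6.93 to 8.95 in BST, CBL and OB. Rps15a was 45.5 to 90.6 in the 4 brain regions and 3.86 to 13.5 in the other organs. Its annotated exons span 6270 bases against an mRNA of 640, and with copies summed its difference changed sign in OB (-0.50), CBL (-0.57), BST (-0.44), STM (0.18) and pgWAT (0.16). In LIV, copies summed left 13 members higher and none lower, and in psWAT 76 and none. Per kilobase of exon Rplp1 led in OB, CBL, BST, STM, LIV, iBAT, pgWAT and psWAT, from 173 normalized CPM per kilobase in CBL to 1520 in psWAT, and Rpl41 in BRN (746). The next highest was Rpl8 in OB, CBL and BST, Rps15 in STM, LIV, iBAT and psWAT, Rplp1 in BRN and Rpl41 in pgWAT. Rpl10l, with 8 counts in all, was lowest.

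Genes that share the 5'TOP tract or the assembly line of the ribosome were described from fixed lists. Of 34 translation factors and other 5'TOP genes outside the member rule, 22 of 33 tested were higher and 1 lower in late iBAT (66.7% and 3.03%, median log2FC 0.64), against the 16.6% and 19.4% of all genes given above. In BRN 12 of 34 were higher (35.3%, against 5.19%; median 0.56), in LIV 11 were higher and 4 lower (32.4% and 11.8%, against 7.76% and 7.2%; median 0.06), and in OB 4 were higher (12.1%, against 2.32%). In CBL none was higher and 2 were lower (6.06%, against 1.71%), the RNA-binding protein Hnrnpa1 and the noncoding Gas5, named after their values had been seen. In STM 4 were higher and 2 lower (12.1% and 6.06%), near or below the 10.7% and 12% of all genes. The elongation factor Eef1a1 rose by 1.00 ± 0.22 in iBAT (edgeR adjusted p 0.00327) and was lower in LIV, where the log2FC was -0.44 ± 0.134 (edgeR adjusted p 0.033). Eif3f, a subunit of the initiation factor eIF3, rose by 1.05 in iBAT, 0.78 in BRN and 0.31 in OB. Fau, the precursor of a small-subunit protein, rose by 0.63 in LIV and 0.83 in STM.

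Of 34 genes of ribosome assembly and rRNA synthesis, 6 were higher and 7 lower in iBAT (17.6% and 20.6%, median -0.06), close to the 16.6% and 19.4% of all genes. In STM 1 was higher and 5 lower (2.94% and 14.7%, against 10.7% and 12%), in OB 3 and 1 (8.82% and 2.94%, against 2.32% and 2.54%), in LIV 2 and none (5.88%, against 7.76%) and in BRN 1 and 1 (2.94% each, against 5.19% and 2.24%). In iBAT Nhp2, of the box H/ACA particles, rose by 1.21 and the long gene Mdn1, an assembly ATPase, was lower with a log2FC of -1.903. Nhp2 was also higher in BRN (1.01) and Mdn1 lower (-0.91). Of 13 genes of nutrient control of translation, 2 were higher and 7 lower in iBAT (15.4% and 53.8%): Ddit4, an inhibitor of mTORC1, rose by 1.41 and Eif4ebp1 by 0.80, whereas Mtor (log2FC -0.94), Larp1 (-0.83) and Deptor (-1.43) were lower. No value with the length trend removed was taken for these genes, and long genes as a class were lower in late iBAT, as given above. Ddit4 also rose in OB (0.43), CBL (0.47) and STM (0.58).

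Mitochondrial ribosomal proteins, short mRNAs of another ribosome, set a comparison for length. Of 76 tested, 58 were higher in late iBAT (76.3%, against 16.6% of all genes; median log2FC 0.69) and 18 in BRN (23.7%, against 5.19%; median 0.45), with none lower in either. In STM 12 were lower and none higher (15.8%, against 12% of all genes called lower; median -0.23), and in LIV 7 were higher and 4 lower (9.21% and 5.26%, against 7.76% and 7.2%). The members' medians in the same organs were 0.80, 0.81, 0.35 and 0.29. Pseudogenes named after ribosomal proteins were called higher in 88 of 100 cases in iBAT (median 1.10). In BRN 36.9% of those tested were called higher (median 1.04) and none lower, in LIV 20.8% higher and 1.98% lower, and in STM 5.77% and 2.88%. In each library they held 0.998 to 1.34 times the counts of the members.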

How the data were processed

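Paired reads of stranded mRNA libraries were aligned by the authors to GRCm38.p5 with TopHat2 2.1.1, and those aligned to a single place were counted over Gencode exons with HTSeq 0.9.1. The deposited values are raw counts for 162 libraries, with no normalization. The members and lists were chosen with earlier results of these data known. Genes reaching a CPM equal to 10 counts in the median library in at least 3 libraries were tested per organ with edgeR 4.0.16 (TMM, robust quasi-likelihood, 6 time levels) in R 4.3.3, with Benjamini-Hochberg adjustment over all genes. Fits across organs used a trended dispersion by binned spline because of run time. Each mouse gave all 9 organs and was the block between organs (median correlation of deviations 0.0206 within and -0.0101 between mice). Within an organ every library is another mouse, and p-values measure the spread between mice. DESeq2 1.42.0, other filters and scalings, lane, library series, transcript length, summed copies and left-out libraries were alternatives. Coordinates and lengths come from Gencode M21, a later release than the authors used. In simulated data for iBAT 56 of 100 genes changed 2-fold and 7 of 100 changed 1.5-fold were called, with 3 unchanged genes of 14376, and for LIV 96, 70 and 10 of 13831. Named members were fixed genes (Rplp0, Rplp1, Rplp2, Rpsa and relatives), those with the 3 smallest adjusted p per organ and direction, those with the 3 largest folds between organs, and the 2 highest and lowest per kilobase. Some members and sequences are not reported here by name.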

Additional observations from a re-analysis of the deposited data

Results flagged for a closer look

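A library far from the others of its group was found in 2 of 27 groups of summed shares and 3 of 38 groups of named members, where chance flags about 1 in 20 groups. In early CBL the member share was 0.383% in 2 h replicate 3 and 0.3097 to 0.3259% in the other 5. In early STM it was 0.9525% in 0 h replicate 3 and 0.494 to 0.6078% in the others. In late OB Rpl6l stood at 99.08 normalized CPM in 18 h replicate 1, against 65.88 to 75.04. In early CBL Rps24 stood at 52.73 in 2 h replicate 3, the library with the high share, against 45.1 to 47.91. In late LIV Rpl4 stood at 140.9 in 18 h replicate 1, against 215.2 to 229.2.

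The late difference varied between organs for 61 members by the interaction test.

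Of the 5 libraries outside the comparisons, 3 held shares above those of their organ at 0 h. In BRN the share was 1.767% at 8 h replicate 3 and 1.05% at 18 h replicate 1, libraries of 130701 and 279848 counts, against 0.3491 to 0.4074% at 0 h. In iBAT it was 0.8137% at 22 h replicate 1, against 0.1688 to 0.3495% at 0 h. The others lay within the 0 h range of their organ, STM 12 h replicate 3 at 0.699% (0.521 to 0.953% at 0 h) and psWAT 22 h replicate 2 at 1.86% (1.05 to 1.88%).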

How the results depend on the processing

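Results are counts of members called in either direction, late over early unless said, and only some are split by direction. Where no share of all genes is given, a count cannot be set against the calls of its fit. With an absolute log2FC over 1 as well there were 0 in OB and CBL, 2 in LIV, 11 in STM, 15 in BRN and 26 in iBAT, and for mid 11 in BRN and 0 in LIV. DESeq2 gave 14 in OB, 42 in BRN and 2 in pgWAT, and 36 in mid BRN. Without a low count filter there were 17 in OB, 41 in BRN and 2 in BST, and for mid 37 in BRN, 2 in CBL and 3 in BST, and a filter 10 times stricter left 3 in CBL. With 0 h alone as reference there were 4 in OB, 2 in CBL, 1 in BST, 10 in STM (6 higher, 4 lower) and 25 in iBAT. Hours as a linear term gave 0 in OB and 16 in BRN. With the length trend removed there were 3 in OB, 16 in BRN and 0 in mid BRN. Lane as a covariate left 0 in OB, BRN, STM, LIV and mid BRN, library series left 0 in BRN and mid BRN, and so did putting back the 5 left-out libraries. In OB, STM and LIV lane could be separated from fasting only through 8 h, and it left 0, 0 and 8 calls over all genes there.

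With copies summed there were 79 in iBAT, 50 in BRN, 20 in OB, 14 in LIV, 2 in STM, 1 in BST and 1 in CBL, and for mid 36 in BRN and 1 in BST. With the length trend removed as well there were 2 in CBL, 2 in BST, 6 in STM and 72 in iBAT, and for mid 0 in BRN, 1 in BST and 20 in LIV (11 higher, 9 lower). With 18 h alone there were 26 in OB, 1 in BRN, 0 in iBAT and 0 in CBL, and with 22 h alone 0 in OB, 12 in BRN, 1 in STM and 10 in LIV. Between organs, copies summed gave 13 in LIV, 11 in OB, 10 in STM and 5 in iBAT, and totals without TMM 38 in iBAT, 23 in CBL, 18 in LIV, 8 in STM, 6 in pgWAT and 5 in OB. Without the fold threshold there were 79 in BST, 77 in CBL, 72 in OB, 69 in LIV, 64 in iBAT, 63 in STM, 53 in pgWAT and 52 in BRN. The causes were not tested.

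Leaving out each library in turn gave 0 to 21 in OB, 0 to 50 in BRN, 2 to 8 in CBL, 0 to 1 in BST, 14 to 28 in STM, 17 to 27 in LIV, 35 to 50 in iBAT, 0 to 27 in pgWAT and 0 in psWAT. For mid it gave 0 to 32 in BRN, 0 to 1 in CBL, 0 to 2 in BST and 6 to 21 in LIV, and 0 in OB, STM, iBAT, pgWAT and psWAT. Mid BRN fell to 0 without 0 h replicate 1 or 2, 2 h replicate 2 or 3, or 8 h replicate 1 or 2. Between organs, leaving out a replicate number gave 16 to 21 in OB, 7 to 12 in BRN, 45 to 47 in CBL, 47 to 49 in BST, 15 to 21 in STM, 43 in LIV, 10 to 11 in iBAT, 2 to 5 in pgWAT and 62 to 70 in psWAT, and 26 to 63 in the interaction.

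Within an organ, libraries of different times share only a replicate number (median correlation of their deviations -0.168 in psWAT to 0.108 in iBAT, with pairs below 0 in every organ). The replicate block gave 12 in OB, 30 in BRN, 7 in CBL, 24 in STM, 24 in LIV and 42 in iBAT, 16 in mid BRN, 12 in mid LIV and 62 in the interaction, and 0 where the fit without it gave 0. Between organs, the fit with no replicate block for the mouse gave 4 in pgWAT.

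Among 201 results of named members, 4722 values kept their call or stayed uncalled with little shift, and 262 no longer passed. Another 257, called in neither the main nor the alternative fit, moved by more than their SE. Where either fit made a call 16 values changed sign, and the rest of all values passed anew. Signs of values called in neither fit were not compared. With copies summed Rpl10 and Rps6 in STM went to -0.15 and -0.17, Rps27a to 1.37 in BRN, -0.026 in LIV and 0.98 in iBAT, Rps29 in BRN against other organs to 0.089, and Rps15a against other organs to -0.50 in OB, -0.57 in CBL, -0.44 in BST, 0.18 in STM and 0.16 in pgWAT. With the length trend removed as well, Rpl10 and Rps6 in STM went to -0.17 and -0.16, Rps6 in LIV to -0.017, and Rps27a to -0.058 in LIV and 0.61 in iBAT.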
